A study of Arabidopsis thaliana with 2 samples.

Results

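LHY is a MYB-type transcription factor of the plant circadian clock. It accumulates around dawn and is best known as a repressor of genes whose transcripts peak towards evening, which carry binding sequences for LHY and its close homologue CCA1 in their promoters. The transcription start site (TSS) is where RNA polymerase begins a transcript, so a factor bound at or just after it sits where the transcription machinery assembles. The peaks described here, called start-site peaks, are those that the authors placed just upstream of the TSS of a gene, at it or downstream. They were chosen by position alone: every pair of a gene and a peak at −50 bp or higher relative to the TSS was taken, which gave 315 of 1762 pairs (17.9%, exact 95% interval 16.1 to 19.7) and 314 of 1602 genes. ABI5 was the gene with 2 such pairs.

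The material was Arabidopsis thaliana seedlings of the Columbia ecotype (Col), aged 2 weeks and harvested 2 h after dawn. The LHY_IP library held DNA precipitated with LHY antiserum, and DNA from 4 chromatin preparations was pooled into it; the LHY_input library held input DNA of the same ecotype, tissue and time, with no antibody. No genotype lacking LHY was analysed here, and whole seedlings mix many cell types. With 1 library per group no value has a replicate error and no difference was tested. Intervals below cover counting over pairs or genes only, and treat these as independent. Strength is the authors' −log10 q for a peak, phase is the hour of peak expression in constant light that the authors took from the Diurnal database, and genes for which one was listed are called rhythmic. Phase was not measured in these seedlings.

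Positions of the 315 pairs ran from −50 to 674 bp, with a median of 19 bp and quartiles of −19 and 81 bp. Upstream of the TSS lay 117 pairs, 7 lay exactly on it and 191 lay downstream. The 200 pairs from −50 to 50 bp made up 63.5%. Which point of a peak its position refers to was not stated. Per 50 bp, the number of pairs was 117 from −50 to −1 bp, 80 from 0 to 49 bp, 54 from 50 to 99 bp, 28 from 100 to 149 bp and 20 from 150 to 199 bp. Farther upstream, each 50 bp from −200 to −51 bp held 107 to 110 pairs, and −250 to −201 bp held 55. Beyond 200 bp downstream there were 16 pairs, and beyond 300 bp there were 7. The authors gave each peak to the closest gene facing away from it, per the file headers, so a peak deep inside a gene would often be given to another one, and the fall in number along the gene body cannot be told apart from that rule.

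**Figure D1:**
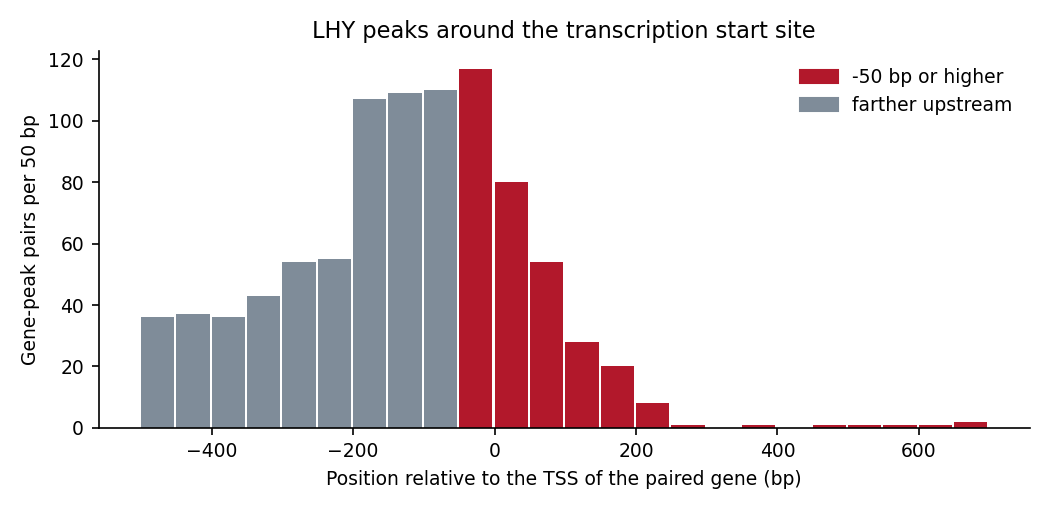
Number of gene-peak pairs per 50 bp (vertical axis) by position relative to the TSS in bp (horizontal axis, 0 is the TSS); red bars are pairs at −50 bp or higher and grey bars are pairs farther upstream, shown as far as −500 bp. The tallest bar is the 117 pairs from −50 to −1 bp, and the red bars fall to 20 pairs at 150 to 199 bp.

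At the limit itself, PIF7, a bHLH factor of phytochrome signalling, lay at −50 bp with a −log10 q of 3.55. The ribosomal protein gene AT1G58380 (18.8) and the F-box gene FBS2 (7.35) followed at −49 bp. Just outside, at −51 bp, lay AT1G25400, of unknown function (93.7), NYC1, which acts in chlorophyll breakdown (30.8), DREB2B (25.6) and AT2G25250, also of unknown function (20.3).

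The farthest downstream was PHOT1, the blue-light receptor of phototropism, with 8.50 at 674 bp. ATBCAT-5, an aminotransferase gene of branched-chain amino acid metabolism, had 44.0 at 669 bp. SPL10, a squamosa-promoter-binding factor, had 5.33 at 648 bp. AT5G67390, of unknown function, had 4.50 at 559 bp, and ABI5, a bZIP factor of abscisic acid (ABA) response in seeds, had 5.32 at 514 bp. ACA8, a calcium pump of the plasma membrane, followed with 41.2 at 469 bp. Of these 6 genes, ATBCAT-5 and ACA8 were in the strongest quartile of the whole list, which began at 17.3 (25.5% of all pairs), and the others were below the median of all pairs, 10.2.

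Start-site peaks, those at −50 bp or higher, were of about the same strength as the others. Their median −log10 q was 10.3 (interval 9.39 to 11.05, n = 315) and that of the other pairs was 10.2 (interval 9.39 to 10.3, n = 1447). In the strongest quartile of all pairs (−log10 q of 17.3 or more, 25.5% of the list) lay 73 of the 315 pairs (23.2%, interval 18.6 to 28.2), against 376 of the other 1447 (25.98%, interval 23.7 to 28.3). A −log10 q of 50 or more was reached by 19 of the 315 (6.03%) and by 85 of the other pairs (5.87%). The range was 2.92 to 160.7 at −50 bp or higher and 2.31 to 260.1 elsewhere. The highest value of the list thus lay farther upstream, in the larger group of pairs.

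The start-site pairs were also compared with each other by position. Of the 117 pairs just upstream of the TSS, 13 reached 50 or more (11.1%, interval 6.05 to 18.2), against 6 of the 198 at the TSS or downstream (3.03%, interval 1.12 to 6.48). Medians were closer, 10.3 and 10.0. From 51 to 100 bp downstream, 6 of 53 pairs were in the strongest quartile (11.3%, interval 4.27 to 23.03), from 0 to 50 bp 22 of 83 (26.5%, interval 17.4 to 37.3), from 101 to 200 bp 10 of 46 (21.7%) and beyond 200 bp 3 of 16 (18.8%). The share therefore did not fall steadily with distance, and these intervals overlapped. Beyond 200 bp the median was 6.08 over 16 pairs.

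**Figure D2:**
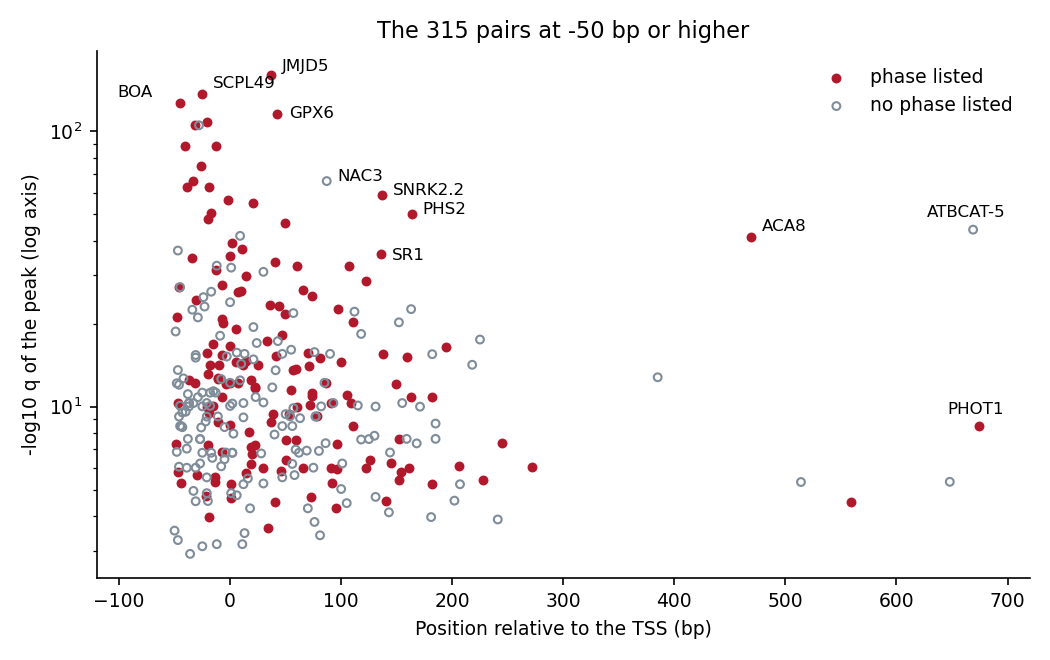
Strength of each of the 315 peaks as −log10 q (vertical log axis) by position relative to the TSS in bp (horizontal axis); filled red points are genes with a listed phase and open grey points are genes without one. Most of the strongest points stand between −50 and 50 bp, with JMJD5 (160.7 at 37 bp) on top, and ACA8 and ATBCAT-5 are the 2 peaks over 40 that lie beyond 400 bp.

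The strongest peak belonged to JMJD5, a jumonji-domain histone demethylase gene expressed in the evening, with 160.7 at 37 bp downstream. It was followed by SCPL49, a serine carboxypeptidase-like gene, with 136 at −25 bp, and by BOA, a homologue of the evening complex gene LUX, with 127 at −45 bp. GPX6, a glutathione peroxidase gene of peroxide detoxification, had 116 at 42 bp. These 4 peaks lay within 45 bp of the TSS, on both sides of it, and all 4 genes had a phase of 10 to 12 h. LHCA4, an antenna protein gene of photosystem I, came next with 108 at −21 bp and peaked at 3 h.

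Stress genes followed. ERD7, induced by dehydration, had 106 at −32 bp, and DREB2A, a transcription factor that activates drought and heat genes, had 105 at −28 bp. KIN2, induced by cold and ABA, had 88.6 at −13 bp. COR27, a cold-induced regulator of the clock, had 88.4 at −41 bp. All 4 sat inside the 50 bp before the TSS; ERD7 and KIN2 peaked at 10 h and COR27 at 8 h, and DREB2A had no listed phase. APC1, a mitochondrial carrier gene, had 74.9 at −26 bp.

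The other genes with 50 or more lay on both sides of the TSS. NAC3, a NAC transcription factor gene annotated to water deprivation, had 66.0 at 87 bp. The day-length gene GI had 66.0 at −33 bp, and UBC2, a ubiquitin-conjugating enzyme gene, had 62.8 at −39 bp. ELF3, a scaffold of the evening complex, had 62.7 at −19 bp. The ABA-activated kinase gene SNRK2.2 had 58.9 at 137 bp. BT4, a BTB and TAZ domain gene, had 56.2 at −2 bp and RIBA2, of riboflavin synthesis, had 55.1 at 21 bp. DREB2C, a relative of DREB2A, had 50.6 at −17 bp and PHS2, an alpha-glucan phosphorylase gene, had 50.2 at 164 bp. The last 4 were named because they passed 50, after their values were seen. Of the 19 peaks, 17 were at rhythmic genes, the exceptions being DREB2A and NAC3. A phase was listed for 47.9% of all 315 pairs and for 38.1% of all genes in the list. The same count for the other pairs at 50 or more is not given here.

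The weakest peak, 2.92, was at the glycine-rich protein gene AT3G06780 at −36 bp. PUB29, a U-box ubiquitin ligase gene, had 3.11 at −25 bp, and AT5G17070, annotated as a regulatory subunit of protein phosphatase 4, had 3.17 at 11 bp. None of these 3 genes had a phase.

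Rhythmic genes were frequent at these peaks. A phase was listed for 151 of the 314 genes (48.1%, interval 42.4 to 53.8), against 459 of the other 1288 (35.6%, interval 33.0 to 38.3); over the whole list it was 38.1%. The 2 intervals did not overlap, but the difference was not tested. Among protein-coding genes alone the shares were 50.2% (interval 44.4 to 55.9) and 38.9% (interval 36.1 to 41.7). Genes that failed the cut-off of the phase database and genes not covered by it were not told apart.

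This share was not limited to the start site. Counted by pairs, a phase was listed for 47.9% of the pairs at −50 bp or higher (interval 42.3 to 53.6) and for 46.9% of the 435 pairs from −300 to −51 bp (interval 42.1 to 51.7). It was 33.1% from −1000 to −301 bp, 35.4% from −2000 to −1001 bp and 30.6% still farther upstream. Within the start-site pairs it was 41.0% upstream of the TSS (48 of 117, interval 32.0 to 50.5). At the TSS or downstream it was 52.0% (103 of 198, interval 44.8 to 59.2). Pairs with loci that do not encode proteins all lay upstream and had no phase. With protein-coding genes alone the upstream share was 46.2% (48 of 104, interval 36.3 to 56.2). The lowest of the narrower bins was −50 to −26 bp, with 17 of 57 (29.8%, interval 18.4 to 43.4). From −25 to −1 bp it was 31 of 60 (51.7%, interval 38.4 to 64.8). Protein-coding genes alone gave 34.7% (17 of 49) and 56.4% (31 of 55). These bins were drawn after the positions had been seen.

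**Figure D3:**
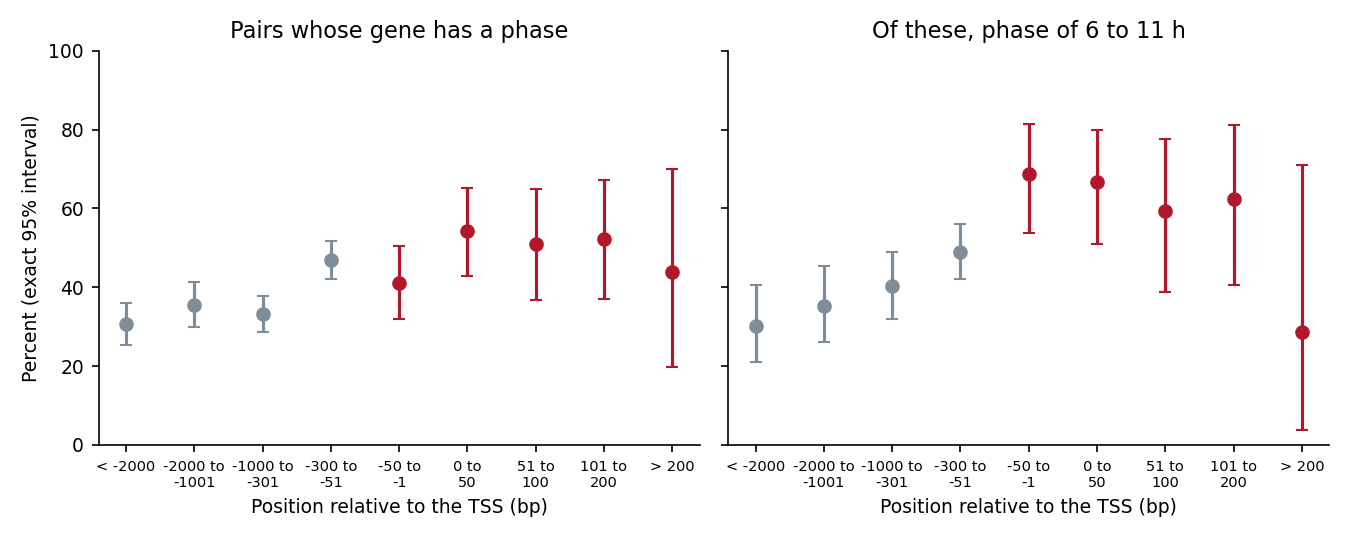
Share of pairs whose gene has a listed phase (left) and, of these, share with a phase of 6 to 11 h (right), in percent with exact 95% intervals, by position relative to the TSS in bp; red bins are at −50 bp or higher and grey bins are farther upstream. On the left the bin at −300 to −51 bp (46.9%) stands beside the red bins, and on the right 4 of the 5 red bins lie from 59.3 to 68.8%, above the 30.1 to 49.02% of the grey bins.

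The rhythmic genes peaked mostly in the later part of the subjective day. Of the 151, 96 had a phase of 6 to 11 h (63.6%, interval 55.4 to 71.2), against 181 of 459 other rhythmic genes (39.4%, interval 34.9 to 44.1), with 45.4% over the whole list. The window was taken over from earlier work on this list, in which it had been chosen with the phases known. At 7 or 8 h peaked 56 genes (37.1%, interval 29.4 to 45.3), against 94 others (20.5%, interval 16.9 to 24.5). Exactly 12 h was listed for 12 genes (7.95%, interval 4.17 to 13.5), against 14 others (3.05%, interval 1.68 to 5.06). From 0 to 5 h it was 19 genes (12.6%, interval 7.75 to 18.9) against 118 others (25.7%, interval 21.8 to 30.0). From 12 to 17 h it was 22 genes (14.6%) against 84 (18.3%), and from 18 to 23 h it was 14 genes (9.27%) against 76 (16.6%).

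**Figure D4:**
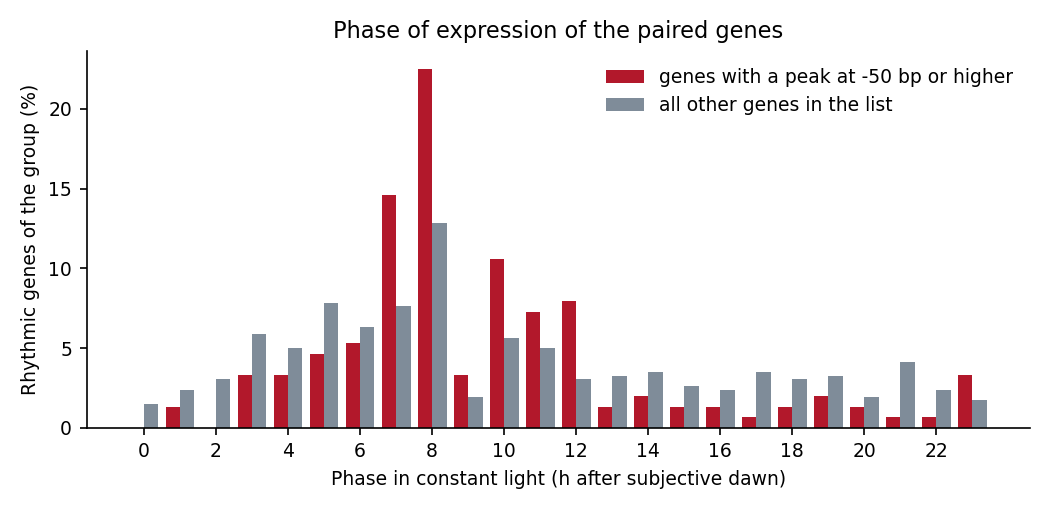
Percent of the rhythmic genes of each group (vertical axis) by phase in whole hours after subjective dawn (horizontal axis); red bars are the 151 rhythmic genes with a peak at −50 bp or higher and grey bars the 459 other rhythmic genes in the list. Red exceeds grey at every hour from 7 to 12, most at 8 h (22.5 and 12.9%).

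By position the share at 6 to 11 h was 68.8% of the rhythmic pairs from −50 to −1 bp (33 of 48, interval 53.8 to 81.3), 66.7% from 0 to 50 bp (30 of 45), 59.3% from 51 to 100 bp (16 of 27) and 62.5% from 101 to 200 bp (15 of 24). Beyond 200 bp it was 2 of 7. In pairs from −300 to −51 bp it was 49.02% (100 of 204, interval 42.0 to 56.1), and it was 40.3% from −1000 to −301 bp, 35.3% from −2000 to −1001 bp and 30.1% still farther upstream. The interval of the start-site pairs as a whole, 55.4 to 71.2, and that of the pairs from −300 to −51 bp overlapped slightly.

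Strength and rhythm went together among these genes. The median −log10 q was 12.2 (interval 10.8 to 14.2) for the 151 pairs of rhythmic genes and 9.21 (interval 8.40 to 10.07) for the 164 pairs of the others. In the strongest quartile lay 48 of the 151 (31.8%, interval 24.5 to 39.8) and 25 of the 164 (15.2%, interval 10.11 to 21.7). By window the medians were 7.37 (0 to 5 h, n = 19), 14.1 (6 to 11 h, n = 96), 10.6 (12 to 17 h, n = 22) and 12.6 (18 to 23 h, n = 14). The median position was 19 and 21.5 bp in the first 2 windows, 76 and 40 bp in the others, and 9.5 bp for genes without a phase.

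Start-site pairs were also set beside other pairs of like strength. In the weakest quartile of the whole list, 35 of 79 start-site pairs were at rhythmic genes (44.3%, interval 33.1 to 55.9), against 102 of 357 other pairs (28.6%, interval 23.9 to 33.6). Of these rhythmic pairs, 23 of 35 had a phase of 6 to 11 h (65.7%, interval 47.8 to 80.9), against 23 of 102 (22.5%, interval 14.9 to 31.9). In the second quartile the rhythmic shares were alike, 30.8% (24 of 78) and 30.5% (112 of 367), and so were the shares at 6 to 11 h, 37.5% (9 of 24) and 34.8% (39 of 112). In the third quartile 51.8% (44 of 85) were rhythmic, against 39.8% (138 of 347), and 68.2% of these against 48.6% peaked at 6 to 11 h. In the strongest quartile the rhythmic shares were 65.8% (48 of 73, interval 53.7 to 76.5) and 49.5% (186 of 376, interval 44.3 to 54.6), and 70.8% (34 of 48) against 48.9% (91 of 186) peaked at 6 to 11 h. The shares at 6 to 11 h thus lay close together in the second quartile and farther apart in the other 3. In the third quartile their intervals, 52.4 to 81.4 and 39.96 to 57.2, overlapped. In the strongest quartile, 55.9 to 83.05 and 41.5 to 56.3 overlapped slightly. The other pairs were taken at all upstream distances together.

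Outside that window the strongest start-site peaks were at genes of varied function. At 0 to 5 h, LHCA4 was followed by AT3G27770, of unknown function (48.3 at −20 bp, 4 h), PSAE-1, a photosystem I subunit (27.3 at −46 bp, 3 h), and ILL6, of the family that releases auxin from amino acid conjugates (14.5 at 5 bp, 5 h). At 12 to 17 h, SCPL49, GPX6, ELF3 and ACA8 led, all with a phase of 12 h. At 18 to 23 h the highest was SR1, a serine/threonine kinase gene (36.0 at 136 bp, 23 h). PLP6, of the patatin-like lipases, had 21.7 at 49 bp (19 h), CTF2B, annotated as a monooxygenase, had 19.1 at 5 bp (20 h), and AT4G37550, annotated as an acetamidase or formamidase, had 18.2 at 47 bp (23 h). These 4 lay downstream of the TSS; of all 14 pairs at 18 to 23 h, 10 lay at 0 bp or higher (71.4%, interval 41.9 to 91.6), beside 62.9% of the 315 pairs.

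In all, 7 lists of clock, light, cold, starch and flowering genes, with 103 genes together, were looked up. Of the 59 that had any peak, 18 had one at −50 bp or higher (30.5%, interval 19.2 to 43.9), beside 19.6% of all genes. Of 12 bound evening clock genes, 4 did so, JMJD5, BOA, GI and ELF3, with a median of 96.5. Of 8 bound morning clock genes, 0 did (exact interval up to 36.9%). For each of the 7 lists, and for all together, the exact interval held the 19.6% of all genes. The lists were drawn up with results of these data known, so these counts are a description.

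The listed starch and flowering genes at the start site ranged widely in strength, from 5.95 to 50.2. Of 8 bound starch genes, 3 did so: PHS2 (50.2 at 164 bp), the amylase gene AMY3 (8.82 at 37 bp) and the phosphoglucan phosphatase gene SEX4 (6.001 at 91 bp). All 3 lay downstream of the TSS and had phases of 8 or 10 h. Of all 315 pairs, 62.9% lay at 0 bp or higher. The list missed SS4, a starch synthase gene, which lay upstream (24.4 at −31 bp, 11 h). Of 7 bound flowering genes, 4 did so, all downstream: FLC, the floral repressor (19.5 at 21 bp), CDF1, a Dof repressor of CONSTANS (14.2 at 12 bp), its relative CDF5 (AT1G69570, 9.39 at 53 bp) and the CONSTANS-like gene COL5 (5.95 at 96 bp). CDF1, CDF5 and COL5 had morning phases of 1, 3 and 4 h, and FLC had none. The day-length gene GI, counted with the evening clock, lay upstream at −33 bp.

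In the light lists, 2 of 8 bound light-harvesting genes and 3 of 6 bound light signalling genes were at the start site. Of all genes, 19.6% were. LHCA1, another photosystem I antenna gene, had 4.28 at 95 bp, far below LHCA4. CRY2, a blue-light receptor gene of flowering, had 14.1 at 25 bp and a phase of 8 h, and PHOT1 and PIF7 are given above. Of 10 bound cold genes, 2, KIN2 and COR27, were among them.

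Keywords in the authors' annotation divided the genes in much the same way as the rest of the list. Transcription factor or DNA-binding terms were found for 30 genes (9.55%, interval 6.54 to 13.4), against 137 others (10.6%). These keywords missed some known factors, among them BOA, DREB2A and DREB2C, whose peaks (127, 105 and 50.6) were stronger than most in the class, so its counts and leading genes are those the keywords found. Kinases and phosphatases numbered 18 (5.73%) against 76 (5.90%), transporters and channels 17 (5.41%) against 60 (4.66%), and redox enzymes 26 (8.28%) against 70 (5.43%). Unknown function was given for 51 genes (16.2%) against 197 (15.3%). In each of these classes the interval of the start-site genes held the share of the other genes, except that it began just above that share for redox enzymes, at 5.48%.

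The leading members of these classes were of many kinds. After NAC3, the strongest that the keywords found in the transcription factor class was emb2746, with a chloroplast location (25.3 at 74 bp, 12 h). HMGB2, a chromatin protein gene of the high mobility group, came next (23.1 at 44 bp, 8 h). After SNRK2.2 and SR1 came a protein phosphatase 2C gene, AT4G33500 (24.998 at −24 bp). Among transporters, OEP16-1, of the outer plastid envelope, had 35.4 exactly at the TSS and a phase of 11 h. BCB, a copper-binding protein gene that the keywords placed there, had 32.0 at 1 bp. SMO2-1, a sterol oxidase gene, had 46.5 at 49 bp and was the third redox enzyme after JMJD5 and GPX6. The chloroplast keyword class held 6 genes, with PIFI (15.7 at −21 bp) after LHCA4 and OEP16-1.

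Genes of the ubiquitin pathway were few but mostly rhythmic. They numbered 11 (3.50%, interval 1.76 to 6.18) against 33 others (2.56%). Of the 11, 9 had a phase (81.8%, interval 48.2 to 97.7), against 9 of 33 (27.3%) and 48.1% of all start-site genes. This was 1 of 8 keyword classes looked at. After UBC2, the strongest were the RING/U-box gene AT3G47160 (34.8 at −34 bp, 8 h) and RAD23C, a shuttle for ubiquitinated proteins (28.7 at 122 bp, 7 h). Of the 9, 7 peaked at 6 to 11 h, beside 63.6% of all rhythmic start-site genes. In the 7 genes with a ribosome or translation keyword 1 had a phase, HEMA1 (13.7 at 59 bp, 23 h). Its enzyme starts chlorophyll synthesis from a transfer RNA, and the keyword placed it there for that reason. The other 6 were transfer RNA genes, none with a listed phase. The class therefore says nothing of ribosomal protein genes such as AT1G58380, which the keywords missed.

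Chloroplast location was more frequent. Among genes with a location in the annotation, 68 of 204 were placed in the chloroplast or a part of it (33.3%, interval 26.9 to 40.2), against 137 of 664 other genes (20.6%, interval 17.6 to 23.9). The intervals did not overlap, and no test was made. This location was not found for the photosystem I genes LHCA4 and PSAE-1, so the counts are those the annotation gave. The chloroplast genes were rhythmic in 57.4% of cases (39 of 68), against 53.3% of the other chloroplast genes (73 of 137). GPX6, KIN2, RIBA2, PHS2, SMO2-1 and OEP16-1 carried this location. So did ALDH5F1, an aldehyde dehydrogenase gene (33.6 at 40 bp, 10 h), and BASS2, of the bile acid symporter family (26.002 at 7 bp, 9 h). Any chloroplast entry counted, and a gene could have several locations. GPX6 was also listed for the plasma membrane and mitochondrion, and KIN2 for the plasma membrane and nucleus. The endomembrane system was listed for 22 of 204 (10.8%, interval 6.88 to 15.9), against 113 of 664 (17.02%, interval 14.2 to 20.1). Plasma membrane (16.7 against 14.8%) and nucleus (10.3 against 9.79%) differed by less than their intervals.

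**Figure D5:**
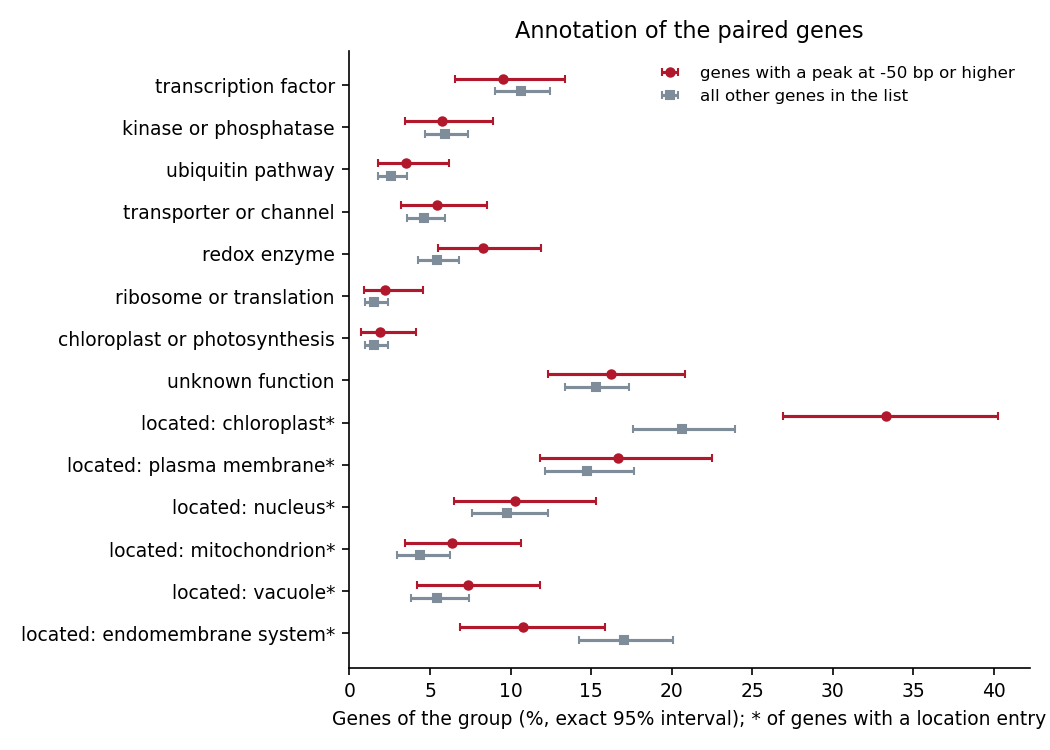
Percent of genes with each annotation keyword or location (horizontal axis, exact 95% intervals), for the 314 genes with a peak at −50 bp or higher (red circles) and the other 1288 genes (grey squares); shares of a location are of the 204 and 664 genes that have a location entry. The chloroplast location, 33.3 and 20.6%, is the one pair of intervals that does not overlap.

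Stress and photosynthesis terms were rare in both groups. Response to salt was listed for 10 of 200 genes with a process entry (5.0%, interval 2.42 to 9.003), against 19 of 683 (2.78%). GPX6, ERD7, KIN2 and BCB led these, and VAMP713, a vesicle protein of the vacuole, followed lower down (10.8 at 163 bp). Water deprivation was listed for 6 (3.0%) against 11 (1.61%), cold for 5 (2.5%) against 18 (2.64%), and ABA for 4 (2.0%) against 10 (1.46%). Photosynthesis was listed for 6 (3.0%) against 9 (1.32%): LHCA4, PGRL1B, of cyclic electron flow (15.6 at 90 bp), PSAL of photosystem I (11.1 at 105 bp), PSBX of photosystem II (10.8 at 23 bp), the chlorophyll synthesis gene CRD1 (8.83 at −11 bp) and LHCA1. The process circadian rhythm was listed for AMY3 alone among these genes and for 5 others, so the annotation did not carry it for JMJD5, GI or ELF3. Nor did it list water deprivation for DREB2A, cold for COR27, ABA for ABI5 or SNRK2.2, or photosynthesis for PSAE-1. The counts of these terms are therefore not full counts of such genes.

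Most of these genes had no other peak. A further peak was listed for 23 of the 314 (7.32%), against 123 of the other 1288 genes with several peaks (9.55%). In 10 of the 23 the start-site peak was the strongest of the gene, and in 13 another peak was. At GI the start-site peak was the weaker, 66.0 beside 162 at −861 bp. At ACA8 (41.2 at 469 bp, beside 11.3 at −4668 bp), SR1 (36.0 beside 19.4 at −383 bp) and PSAE-1 (27.3 beside 2.99 at −1702 bp) it was the stronger. It was also the stronger at AT2G21300, a microtubule motor gene (41.7 at 9 bp, beside 16.5 at −1390 bp), and at AT3G56720, of unknown function (32.3 at 60 bp, beside 21.1 at −3294 bp). At CDF1 it was the weaker, beside 21.7 at −481 bp, and at CDF5, beside 25.8 at −987 bp. Both pairs of ABI5 lay in the range described, 6.52 at −16 bp and 5.32 at 514 bp.

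Loci that do not encode proteins were found on the upstream side alone. All 198 pairs at the TSS or downstream were with protein-coding genes, and 104 of the 117 from −50 to −1 bp were. The other 13 were 6 transfer RNA genes, 2 microRNA genes, 2 pseudogenes, 1 transcribed pseudogene, 1 noncoding RNA gene and 1 locus with no match in the gene table. The whole list held 13 pairs with transfer RNA genes, so 6 of 13 were here, beside 17.9% of all pairs. Pseudogenes went the other way, with 2 of the 315 pairs (0.63%) against 70 of the other 1447 (4.84%). Protein-coding genes made up 95.9% of the 315 pairs and 92.0% of the others. The transfer RNA pairs lay from −45 to −5 bp, with −log10 q from 5.54 to 12.7, highest at a tRNA-Trp gene, AT4G17765, at −42 bp. MIR396a had 11.2 at −18 bp and MIR164c had 6.05 at −46 bp; both microRNA families act on transcription factors of growth. The strongest of the 13 was the noncoding RNA gene AT3G41761, with 27.2 at −45 bp. None of the 13 had a listed phase. Such loci rarely had one anywhere in the list, where 608 of the 610 genes with a phase were protein-coding. How reads from near-identical transfer RNA copies were placed was not stated in the sources used here.

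On the chromosomes the pairs were spread evenly. They made up 19.6% of all pairs on chromosome 1, 19.2% on 2, 16.5% on 3, 14.96% on 4 and 18.3% on 5, with overlapping intervals. One of the 315 shared its peak with a neighbouring gene, by an equal −log10 q at most 5 places away: AT5G67290, an FAD-dependent oxidoreductase gene (12.009 at −46 bp), and MYBR1, a MYB gene for which the same value was listed at −4131 bp. Of the other 1447 pairs, 99 shared a peak in this way.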

How the data were processed

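The peaks came from 1 ChIP-seq library, pooled from 4 samples, and 1 library of input DNA. The submitters' processing notes name Bowtie, MACS2 2.0.10.09132012 and the build TAIR9; no peak threshold was stated. The deposited table gives, per gene, up to 4 peaks with a −log10 q by the authors and a position relative to the TSS; one header line calls these values −log10 of the p-value. It holds no depth, so depth is unknown and values serve only to rank peaks within the list. Per the file headers, phases were looked up in Diurnal (LL23 data) at a cut-off of 0.8.

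Loci were matched to a TAIR10.1 gene table for symbols, biotypes and gene order (1596 of 1602; 313 of the 314). Shares have exact Clopper-Pearson intervals and medians order-statistic intervals, at 95%; their coverage was tested on simulated data. Strength was divided at the quartiles of all pairs. Keywords were read from the gene name and molecular functions. Genes named were the strongest and weakest, the farthest downstream, those at the limit, every one in a list, the strongest of each class and phase window and the strongest with a further peak; others were named after their values were seen. Members and lists were chosen with earlier results of these data known. Promoter sequences and the planned motif shares were not analysed here. Python 3.11.15, NumPy 2.4.6, pandas 2.3.3, SciPy 1.17.1 and Matplotlib 3.10.9 were used.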

Additional observations from a re-analysis of the deposited data

How the results depend on the processing

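Of 42 alternative values for 5 results, 32 stayed inside the interval of the value reported. The share of pairs followed its limit by construction: 11.2% from 0 bp, 24.1% from −100 bp and 11.3% from −50 to 50 bp. With pairs above the median −log10 q alone, the median rose to 15.9 by construction, and the share of rhythmic genes was 58.2%, against 43.5% of other genes in that setting. The rhythmic share was 41.0% from −50 to −1 bp, against 37.9% of all other genes, and by quartile of strength 30.8% in the second and 65.8% in the strongest; these settings were added after seeing the data. Counted from 4 to 9 h the phase share was 53.6%, against 41.6% of other rhythmic genes, and from 8 to 13 h it was 53.0%, against 31.8%. Shared peaks counted once, protein-coding loci alone and the strongest peak per gene moved none of the 5 results out of its interval. The motif alternatives were not run, since no promoter sequence was analysed. The single pooled library and the unknown depth limit every value. No paired analysis was possible because there was only 1 ChIP library.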

Other observations

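Some gene families appeared with several members at the start site; they were picked after their values had been seen, so they are a description. Of the DREB2 factors, DREB2A (105 at −28 bp) and DREB2C (50.6 at −17 bp) lay just upstream of the TSS, and DREB2B, with 25.6 at −51 bp, missed the limit by 1 bp. DREB2C and DREB2B had phases of 8 and 11 h. The ABA-activated kinase genes SNRK2.2 (58.9 at 137 bp, 10 h) and SNRK2.3 (14.2 at −10 bp, 8 h) were bound on opposite sides of the TSS. The ferritin genes FER4 (12.6 at −11 bp) and FER1 (6.05 at 272 bp), which store iron, both had a phase of 8 h. Among hormone and growth receptors, KAI2, the karrikin receptor gene, had 8.55 exactly at the TSS and 8.41 at −565 bp, and the receptor kinase gene FERONIA had 11.5 at 55 bp and 12.6 at −387 bp.

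Many −log10 q values recur exactly in the list. Of the 315 values, 162 (51.4%) were also listed for another pair, against 882 of the other 1447 (61.0%), and the 1762 pairs held 935 distinct values.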
